A study of Drosophila melanogaster with 6 samples.

Results

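Oxidative phosphorylation genes were taken from the deposited gene list by symbol. The rule took mitochondrial genes named mt:Co, mt:Cyt-b, mt:ND or mt:ATPase, nuclear genes whose symbols begin with ND-, UQCR-, COX and a digit, or ATPsyn, and the genes SdhA to SdhD. It found 97 of 17698 genes, 13 of them in the mitochondrial genome and 84 in the nucleus. Of the nuclear genes, 63 are subunit genes of the respiratory complexes and 21 are like-named copies, whose symbol is that of a subunit followed by L. The rule itself used no measured value, but it was chosen with earlier results of these data known.

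Transcripts were counted by RNA-seq in whole antennae of female Drosophila melanogaster, with 3 control and 3 PCD-blocked libraries in 3 sample pairs. Control flies were peb-Gal4/+;Or49a-GFP/+ and PCD-blocked flies were peb-Gal4/+;Or49a-GFP/UAS-p35, so both groups carried the Gal4 driver and the GFP reporter and only the latter could express p35. PCD stands for programmed cell death, and p35 is a baculoviral inhibitor of caspases, the proteases that carry out apoptosis. Each library pooled antennae of about 350 flies, and the labels used here give no age. In whole antennae, fewer cells of a type and less RNA per cell cannot be told apart.

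Oxidative phosphorylation makes ATP in the inner mitochondrial membrane. Complex I takes electrons from NADH and complex II from succinate, complex III passes them to cytochrome c, and complex IV passes them to oxygen. Complexes I, III and IV pump protons, and complex V, the ATP synthase, uses the returning protons to make ATP. Complexes I, III, IV and V combine a few subunits encoded in mitochondrial DNA with many encoded in the nucleus, while complex II is wholly nuclear.

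The transcripts of the 2 genomes together made up 4.07% to 4.74% of the gene counts of each library. Gene counts ran from 15588725 to 17808516 per library, so that a count of 3 stood for 0.169 to 0.192 CPM. CPM is the count of a gene relative to the library total, here scaled by TMM, a method that assumes most genes do not differ between libraries. Of the 97 genes, 74 passed the expression filter and were tested: 10 mitochondrial genes, 61 nuclear subunit genes and 3 like-named copies. Of these, 73 were over the filter's cutoff of 0.574 CPM in all 6 libraries, and COX7AL was under it in 1 PCD-blocked library. The 4 olfactory neuron markers summed to 5097 to 5236 CPM in control libraries and 5748 to 5847 CPM in PCD-blocked libraries. Sums were far lower for the 3 auditory neuron markers, at 4.22 to 6.71 and 6.37 to 13.4 CPM. The 5 photoreceptor markers summed to 2.30 to 2.72 and 2.70 to 3.70 CPM.

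In control antennae the mitochondrial transcripts of complexes III and IV were the most abundant of all members per kilobase of exon. The level of mt:CoI (mitochondrial positions 1474 to 3009 of build BDGP6), the catalytic subunit of complex IV, was 8373 ± 1400 CPM per kilobase (SD, n = 3). Its fellow subunit gene mt:CoIII followed with 7909 ± 1244, and mt:Cyt-b, the cytochrome of complex III, with 5622 ± 717 CPM per kilobase. The neighbours mt:CoI and mt:CoIII in this order differed by less than their SDs. The third complex IV gene, mt:CoII, had 3077 ± 370 CPM per kilobase.

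Mitochondrial genes of complexes I and V lay lower and covered a wider range. The proton channel subunit gene mt:ATPase6 of the ATP synthase had 1195 ± 191 CPM per kilobase in controls. For complex I, mt:ND4 had 643 ± 80.0, mt:ND1 had 356 ± 65.3 and mt:ND5 had 352 ± 49.8 CPM per kilobase, the last 2 within their SDs. The levels of mt:ND3 and mt:ND2 were 42.5 ± 8.04 and 8.71 ± 1.36 CPM per kilobase. Per kilobase, mt:CoI exceeded mt:ND2 by 786-fold to 1091-fold in the 6 libraries. All these levels are of counted reads from poly(A)-selected RNA. Reads that aligned to several places or were assigned to several genes were left out. The part of the selection and of these reads in the differences between mitochondrial genes was not tested. All of these genes encode membrane subunits, and mt:ND4, mt:ND5 and mt:ND2 encode proton-pumping parts of complex I.

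The remaining mitochondrial protein genes had almost no counts, and the same limits apply to them. The 6 libraries together held 0 counts for mt:ATPase8 and no more than 2 counts in any library for mt:ND6 and mt:ND4L. The ribosomal RNA genes mt:srRNA and mt:lrRNA had at most 3 counts in a library. In the annotation mt:ATPase8 is 162 bases long and shares 4.3% of them with mt:ATPase6, and the part of this overlap in its count was not tested.

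Genes that lie next to each other on the same mitochondrial strand had unequal levels. The end of mt:ATPase6 and the start of mt:CoIII share position 4736. Even so, the level per kilobase of mt:CoIII was 6.62, 6.60 and 6.65 times that of mt:ATPase6 in the control libraries. It was 7.30, 7.44 and 7.69 times as high in the PCD-blocked libraries, above all controls. For mt:ND4 and its neighbour mt:ND5, both on the minus strand, the ratio was 1.89, 1.70 and 1.92 in controls and 2.05, 1.97 and 2.05 in PCD-blocked libraries, also without overlap. These pairs were picked after their values were seen, and 3 libraries against 3 cannot reach a two-sided exact permutation p below 0.1.

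Nuclear subunit transcripts were less abundant and more alike. Among the 61 tested nuclear subunit genes the control level ran from 42.9 CPM per kilobase (ND-B18) to 861 (ATPsynbeta), with a median of 158. The highest were 2 genes of the ATP synthase, ATPsynbeta with 861 ± 42.4 and ATPsynC with 743 ± 31.4 CPM per kilobase. ATPsynbeta encodes the catalytic subunit and ATPsynC the subunit of the rotating membrane ring, which is present in several copies per enzyme. Per kilobase, ATPsynbeta exceeded ATPsynO, a subunit of the stalk, by 2.54-fold to 2.81-fold in the 6 libraries.

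By complex, the median control level of nuclear subunit genes was 123 CPM per kilobase for the 32 tested genes of complex I. It was 290 for the 4 genes of complex II, 181 for the 6 of complex III, 281 for the 8 of complex IV and 262 for the 11 of complex V. The highest nuclear genes of complex III were UQCR-14 with 345 ± 25.5 and the core gene UQCR-C1 with 284 ± 24.8 CPM per kilobase. In complex II, SdhA, the flavoprotein that oxidises succinate, led with 338 ± 14.8, followed by the iron-sulfur subunit gene SdhB with 311 ± 20.1. SdhC and SdhD, which encode the membrane anchor, had 270 ± 9.31 and 235 ± 6.17 CPM per kilobase.

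The nuclear subunit genes ND-MNLL and ND-B8 were not tested because they had almost no counts. In the reference annotation all exon bases of ND-MNLL belong also to CG45089 on the same strand, and both genes were listed at 0 in all 6 libraries. ND-B8 had at most 4 counts in a library. A contrasting case was UQCR-14, all of whose exon bases lie opposite exons of CG32576. Even so, it had 2854 to 3273 counts per library. Exons lie opposite another gene for 31 of the 97 members, and 13 overlap a gene on their own strand.

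**Figure D1:**
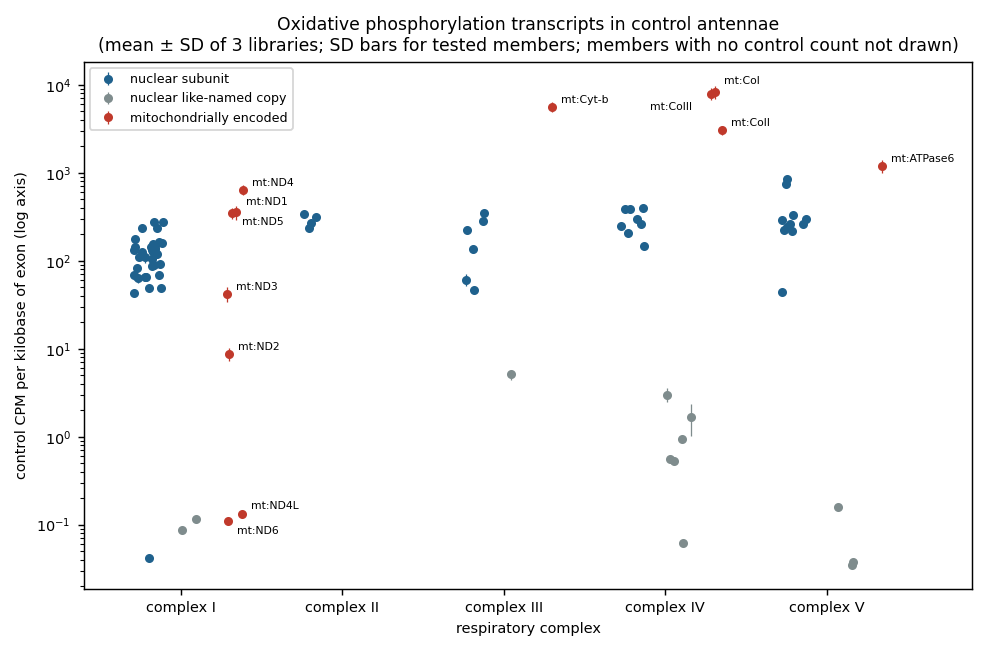
Control levels of oxidative phosphorylation genes by complex, in CPM per kilobase of exon on a log axis. Points are means of 3 control libraries, with SD bars for tested genes, and red marks mitochondrial genes, blue nuclear subunit genes and grey like-named copies. Mitochondrial genes of complexes III and IV lie between 3077 and 8373, above all nuclear genes, while mt:ND2 and mt:ND3 lie at 8.71 and 42.5.

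The share of mitochondrial transcripts varied more among control libraries than between the groups. Summed over the 13 genes, their share of gene counts was 3.36%, 3.06% and 2.53% in control libraries 1 to 3 and 2.91%, 2.93% and 2.70% in PCD-blocked libraries 1 to 3. Control 1 was the highest and control 3 the lowest of the 6 libraries, and the PCD-blocked libraries lay between them. In summed CPM the control mean was 30229 ± 4578 and the PCD-blocked mean 28127 ± 1378 (SD, n = 3), so the difference was under the control SD. Within pairs the PCD-blocked level was 0.838 of control in pair 1, 0.938 in pair 2 and 1.05 in pair 3.

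Nuclear members differed less between control libraries. Their summed CPM was 14647 ± 726 in controls and 14561 ± 760 in PCD-blocked libraries (SD, n = 3). The within-pair ratios were 0.969, 1.03 and 0.986. The ratio of mitochondrial to nuclear counts was 2.43, 2.17 and 1.64 in controls 1 to 3 and 2.10, 1.98 and 1.74 in PCD-blocked libraries 1 to 3. It was lower with cell death blocked in pairs 1 and 2 and higher in pair 3, and the groups overlapped. The SD of log2 CPM among control libraries had a median of 0.23 over the 10 tested mitochondrial genes and 0.08 over the 61 nuclear subunit genes. Among PCD-blocked libraries the medians were 0.08 and 0.07.

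Summed levels of the nuclear genes of each complex overlapped between the groups. Complex I genes summed to 4374 ± 194 CPM in the control libraries, against 4367 ± 190 CPM with cell death blocked. Complex V genes summed to 5436 ± 271 and 5438 ± 317 CPM, and complex II genes to 1764 ± 65.8 and 1746 ± 59.2 CPM. For complexes III and IV the sums were 1268 ± 101 and 1241 ± 104 CPM, and 1804 ± 99.0 and 1769 ± 94.0 CPM. Each of these differences was smaller than the SD of either group.

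**Figure D2:**
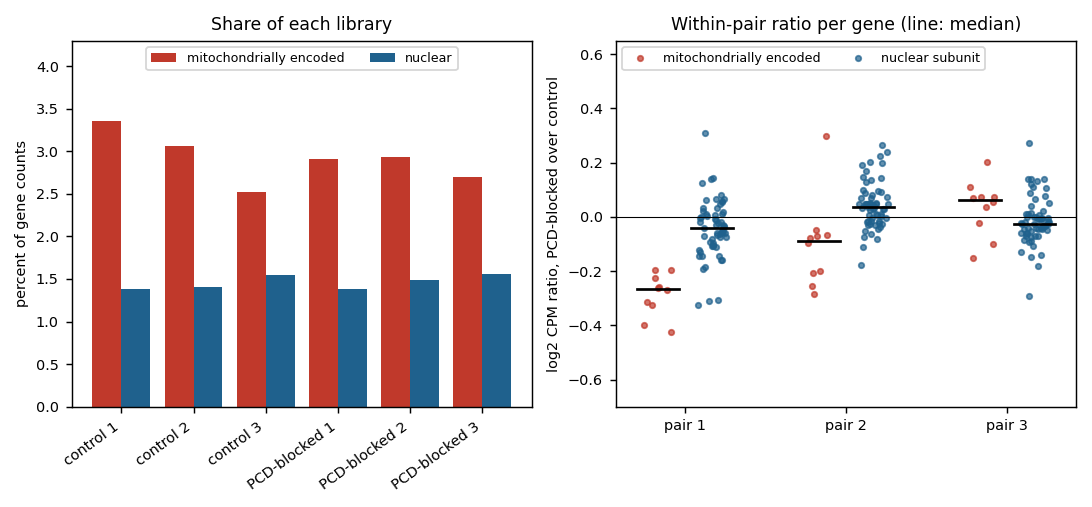
Left, percent of gene counts in each library that came from mitochondrial and from nuclear oxidative phosphorylation genes. Right, log2 ratio of CPM, PCD-blocked over control, for each tested gene in each pair, with black lines at the medians, which for mitochondrial genes are -0.26, -0.09 and 0.06 in pairs 1 to 3. The mitochondrial share is highest in control 1 (3.36%) and lowest in control 3 (2.53%).

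The comparison asked which of these transcripts differ when p35 blocks cell death. In the test over all genes (edgeR quasi-likelihood test with the sample pair as a block, adjusted p under 0.05), 8 of the 74 tested genes had higher and 4 had lower counts when cell death was blocked. That is 16.2% called, 10.8% higher and 5.41% lower. Over all 9181 tested genes 27.7% were called, 14.3% higher and 13.3% lower. The median log2 fold change was -0.02 over the 74 genes and 0.00084 over all tested genes. The mitochondrial genes had 0 higher and 2 lower calls, the nuclear subunit genes 6 higher and 1 lower, and the like-named copies 2 higher and 1 lower.

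These calls varied with the test used and with the pairs included. DESeq2 called 1 higher gene, ND-13B, and 0 lower, against 5.90% and 6.08% of all genes with an adjusted p, or 12.0% in either direction. Without the sample pair as a block 4 were called in either direction, against 23.2% of all genes. Leaving out pair 1 gave 5 higher and 1 lower, against 11.5% and 10.9% of all genes (22.4% together). Without pair 2 there were 1 and 1, against 8.18% and 7.91% (16.1% together), and without pair 3 there were 3 and 7, against 10.7% and 10.9% (21.6% together). ND-13B was among the higher genes in each of these. With no expression filter 6 were higher and 8 lower, against 9.52% and 9.88% of all genes (19.4% together). With plain library totals in place of TMM scaling 10 were higher and 3 lower, and for all genes 1704 (18.6%) and 980 (10.7%), together 29.2%, against 1314 and 1225 with TMM.

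Groups that did not overlap were fewer than among all genes. Of the 74 genes, 5 had all PCD-blocked libraries above all controls and 3 had all below. These are 6.76% and 4.05%, against 19.9% and 18.8% of all tested genes. Log2 fold changes beyond 1.1-fold in either direction were found for 13 of the 74 genes (17.6%), namely 6 of 61 nuclear subunit genes (9.84%), 4 of 10 mitochondrial genes and all 3 tested copies. Over all tested genes the share was 44.5%, and among the 4499 tested genes with at least 30 CPM in controls it was 32.9%.

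**Figure D3:**
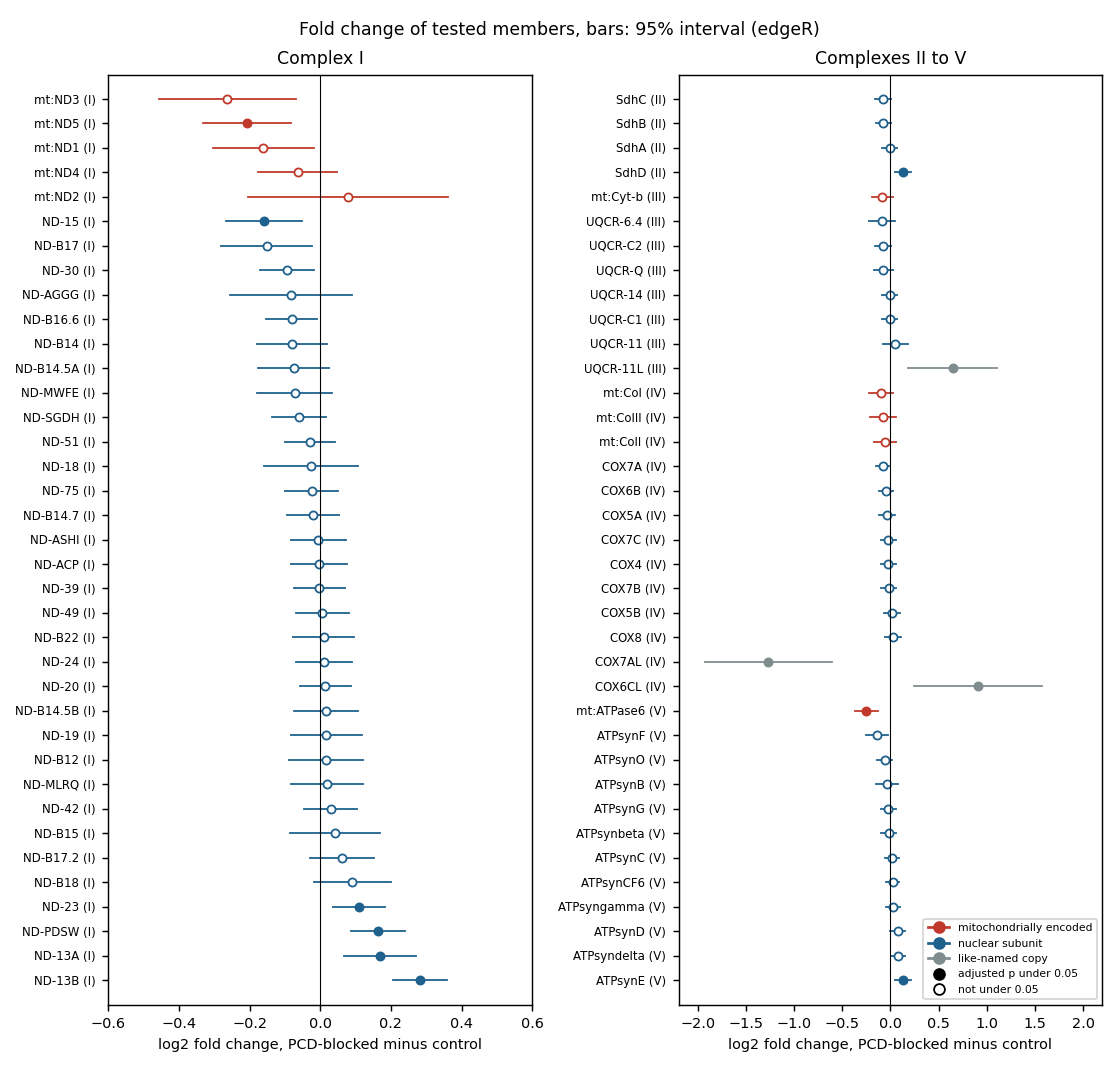
Log2 fold change of each of the 74 tested genes, PCD-blocked minus control, with 95% intervals from the edgeR fit, complex I left and complexes II to V right on a wider axis. Filled points have an adjusted p under 0.05. Nuclear subunit genes lie between -0.16 (ND-15) and 0.28 (ND-13B), and the like-named copies lie furthest from 0.

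In complex I, 5 of 32 tested nuclear subunit genes were called (15.6%, against 27.7% of all genes), 4 of them higher. ND-13B (FBgn0047038, chromosome 3L, 10693184 to 10694108), an accessory subunit of the arm in the matrix, had 79.7, 82.3 and 83.5 CPM in controls and 98.7, 98.9 and 101 CPM in PCD-blocked libraries. The groups were well apart, and the rise was 1.22-fold (a log2 fold change of 0.28 with SE 0.03, edgeR's adjusted p = 0.000381). It was called in all 10 alternative analyses, with an adjusted p up to 0.00739.

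Smaller rises were found for 3 other complex I genes. ND-PDSW (FBgn0021967, chromosome 2L, 3466157 to 3467334), an accessory subunit of the membrane arm, had 101, 103 and 109 CPM in the control libraries, against 112, 119 and 120 CPM with cell death blocked. The groups did not overlap and the log2 fold change was 0.16 ± 0.03 (SE, edgeR's adjusted p = 0.00712), a call lost without pair 2 and with DESeq2. ND-13A (chromosome 2L, 5099177 to 5100288), an accessory subunit, had 44.4, 45.8 and 50.0 CPM in controls and 48.9, 53.6 and 55.0 CPM in PCD-blocked libraries. It was higher in every pair, but its groups overlapped (0.17 ± 0.04 SE, edgeR's adjusted p = 0.0228).

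ND-23, a core subunit that holds iron-sulfur clusters, stood at 124, 125 and 134 CPM in the control libraries and at 132, 137 and 146 CPM in the PCD-blocked ones. It rose in every pair with overlapping groups, by 0.11 ± 0.03 (SE) on the log2 scale (edgeR's adjusted p = 0.0339). ND-15 (FBgn0031228, chromosome 2L, 114726 to 156030), an accessory subunit of the membrane arm, fell. It had 96.9, 91.3 and 106 CPM in controls and 90.1, 86.7 and 86.8 CPM in PCD-blocked libraries (a log2 fold change of -0.16 with SE 0.05, edgeR's adjusted p = 0.0356). The PCD-blocked libraries were all below the controls, though control 2 and PCD-blocked 1 were close. The calls of ND-13A and ND-15 were lost when any 1 pair was left out, with adjusted p up to 0.453 and 0.257 over the alternatives with edgeR or DESeq2. That of ND-23 was lost without pair 2 or 3 and without the filter, and all 3 calls were lost without the block and with DESeq2. The ND-15 call was also lost with plain library totals. In the annotation 15.7% of the exon bases of ND-15 lie opposite Pus10 and 12.4% of those of ND-13A opposite CG4230. The labels name a directional kit but not the strand setting of the counting, and the part of such overlaps in these counts was not tested.

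The other 27 tested nuclear genes of complex I did not pass. Among them are core subunit genes such as ND-75 (log2 fold change -0.02), ND-51 (-0.03), ND-49 (0.01) and ND-30 (-0.09), and the acyl carrier gene ND-ACP (-0.004). Of the 32 tested, 16 had a log2 fold change above 0 and 16 below.

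In complex II, 1 of 4 genes passed (25.0%, against 27.7% of all genes). SdhD (FBgn0039112, chromosome 3R, 23759483 to 23760600), a membrane anchor subunit with 13.9% of its exon bases opposite PTPMT1, had 209, 205 and 216 CPM in the control libraries, against 218, 234 and 238 CPM with cell death blocked. All PCD-blocked libraries were above the controls (a log2 fold change of 0.13 with SE 0.04, edgeR's adjusted p = 0.0261), and the call was lost without pair 2 or 3, without the block and with DESeq2. Its partner in the anchor, SdhC, had 252, 236 and 247 CPM in the control libraries, against 229, 235 and 232 CPM with cell death blocked. It lay lower in every PCD-blocked library but did not pass (-0.08 ± 0.04 SE, edgeR's adjusted p = 0.149). SdhA (-0.01 ± 0.03 SE) and SdhB (-0.07 ± 0.03 SE) did not pass.

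No nuclear subunit gene of complexes III and IV passed, against 27.7% of all genes. The 6 tested genes of complex III had log2 fold changes from -0.09 (UQCR-6.4) to 0.05 (UQCR-11), with UQCR-C1 and UQCR-14 both at -0.01. The 8 of complex IV ran from -0.08 (COX7A) to 0.03 (COX8), with COX4 at -0.02. Their 95% intervals lay between 0.901-fold and 1.08-fold for complex IV and between 0.859-fold and 1.13-fold for complex III. Neither edgeR nor DESeq2 called any of them, and at an unadjusted p under 0.05 the count was 0 with both tools.

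In complex V, ATPsynE passed of 11 tested nuclear genes (9.09%, against 27.7% of all genes). ATPsynE (FBgn0038224, chromosome 3R, 14326947 to 14327735), a small membrane subunit at the contact between ATP synthase dimers, had 157, 155 and 173 CPM in the control libraries, against 164, 178 and 190 CPM with cell death blocked. It was higher in every pair, by 0.13 ± 0.04 (SE) on the log2 scale (edgeR's adjusted p = 0.0284), though the groups overlapped and the call was lost without pair 2 or 3, without the block and with DESeq2. ATPsynbeta (-0.02 ± 0.03 SE) and ATPsynC (0.02 ± 0.03 SE) did not pass. Over all 54 nuclear subunit genes that did not pass, the 95% intervals of the fold change lay from 0.824-fold to 1.15-fold.

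Of the mitochondrial genes, 9 of the 10 tested had a log2 fold change below 0, against 4571 of all 9181 tested genes. Most of the 10 shifted together, with medians of -0.26, -0.09 and 0.06 in pairs 1 to 3, so they are not separate observations. Only mt:ATPase6 and mt:ND5 passed, or 20% lower against 13.3% of all genes lower and 27.7% called in either direction. The level of mt:ATPase6 (mitochondrial positions 4062 to 4736) was 922, 829 and 668 CPM in the control libraries, against 700, 695 and 623 CPM with cell death blocked. It fell in every pair (a log2 fold change of -0.25 with SE 0.05, edgeR's adjusted p = 0.00719), but control 3 lay below PCD-blocked 1 and 2, so the groups overlapped. The level of mt:ND5 (positions 6409 to 8125) was 659, 647 and 505 CPM in the control libraries, against 530, 532 and 497 CPM with cell death blocked (-0.21 ± 0.05 SE, edgeR's adjusted p = 0.0215). Both calls were lost without pair 2, without the block (edgeR's adjusted p = 0.0960 and 0.114) and with DESeq2, and that of mt:ND5 also without pair 1.

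The other tested mitochondrial genes did not pass. The log2 fold change of mt:ND3 was -0.26 ± 0.09 (SE, edgeR's adjusted p = 0.0502), and that of mt:ND1 was -0.16 ± 0.06 (SE). For mt:CoI the values were 14846, 13160 and 10575 CPM in the control libraries, against 12318, 12299 and 11124 CPM with cell death blocked, where PCD-blocked 3 exceeded control 3 (-0.10 ± 0.06 SE). Log2 fold changes were -0.09 for mt:Cyt-b, -0.08 for mt:CoIII, -0.06 for mt:CoII and mt:ND4, and 0.08 for mt:ND2. The level of mt:ND3 was lower in all 3 pairs, and it passed with DESeq2 size factors, without the filter and with a filter of 1 CPM (edgeR's adjusted p = 0.0442, 0.0385 and 0.0455). Over all 10 alternatives its adjusted p ran from 0.0385 to 0.568 with edgeR or DESeq2. Without the filter mt:ND1 also passed. Without pair 3, mt:CoI and mt:ND1 passed as well (edgeR's adjusted p = 0.0339 and 0.00432).

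Taken as a share of all mitochondrial protein-gene counts, which removes the library-to-library change in their total, the 3 most abundant transcripts kept similar shares. In controls mt:CoI held 42.5% ± 0.707, mt:CoIII 20.6% ± 0.130 and mt:Cyt-b 21.2% ± 0.531 (SD, n = 3). In PCD-blocked libraries the same shares were 42.3% ± 0.394, 20.9% ± 0.211 and 21.3% ± 0.203. All 3 shares overlapped between the groups.

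The share of mt:ATPase6 differed. It was 2.68%, 2.68% and 2.64% in controls and 2.43%, 2.40% and 2.35% in PCD-blocked libraries, 10.3% lower on average. The share of mt:ND5 was 1.91%, 2.09% and 1.99% in controls and 1.84%, 1.83% and 1.87% in PCD-blocked libraries, 7.63% lower on average. These were the 2 of 10 tested genes whose groups did not overlap on this scale. Of all tested genes 5.44% were lower and 12.5% higher without overlap on it, against 18.8% and 19.9% in CPM. Dividing by the mitochondrial total adds its spread to nuclear genes and removes it from mitochondrial ones, so these shares are not a like baseline. Of the rarer transcripts, mt:ND2 had a mean share of 0.0296% in controls and 0.0334% with cell death blocked (1.13-fold), and mt:ND3 0.0497% and 0.0443% (0.890-fold), both with overlapping groups. This scale was added after the values were seen.

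**Figure D4:**
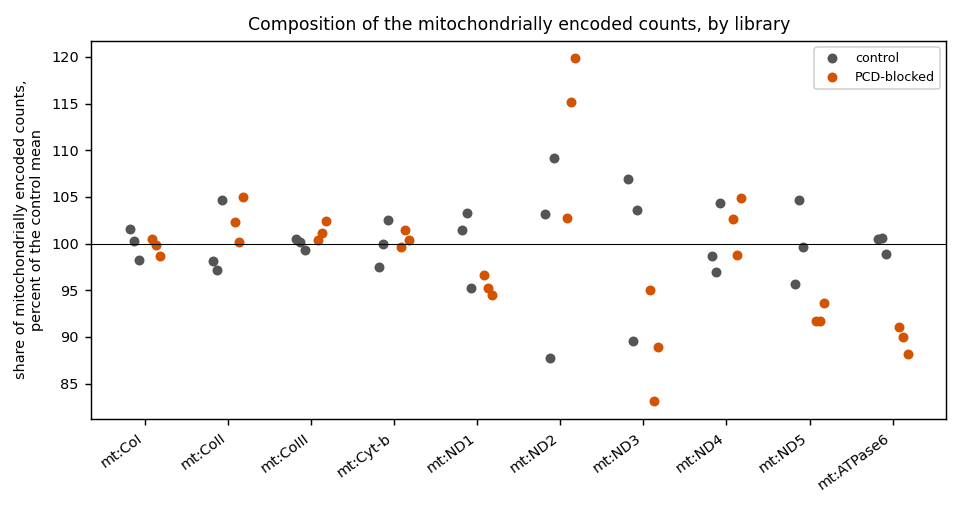
Share of each tested mitochondrial gene in all mitochondrial protein-gene counts, as percent of its control mean, with 1 point per library in grey for control and orange for PCD-blocked. For mt:ATPase6 the control shares are 2.64% to 2.68% and the PCD-blocked shares 2.35% to 2.43%, without overlap. The other genes overlap except mt:ND5.

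Like-named copies of subunit genes were nearly silent. In Drosophila many such copies are known for expression in the testis, and the libraries came from females. Of the 21 copies, 18 had too few counts to be tested, and 7 of these had 0 counts in all 6 libraries. Among the untested copies the highest control level was 0.404 CPM (COX4L). The 3 tested copies had 3.56 CPM or less in either group.

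All 3 tested copies passed, and their groups did not overlap. Over all tested genes 27.7% were called, and 19.9% were higher and 18.8% lower without overlap. COX7AL was over the filter's cutoff in 3 control but only 2 PCD-blocked libraries. Its entry into the test thus leaned on the group where it was high, though it was also called lower without the filter. COX7AL (FBgn0037579, chromosome 3R, 8343669 to 8344310), a copy of COX7A, had 37, 26 and 29 counts in controls and 15, 13 and 9 in PCD-blocked libraries (a log2 fold change of -1.27 with SE 0.29, edgeR's adjusted p = 0.0112). UQCR-11L (FBgn0050354, chromosome 2R, 8677219 to 8677661), a copy of UQCR-11, had 38, 35 and 45 counts in controls and 63, 61 and 56 in PCD-blocked libraries (0.65 ± 0.20 SE, edgeR's adjusted p = 0.0442). COX6CL (FBgn0051644, chromosome 2L, 5817890 to 5818443) had 21, 11 and 11 counts in controls and 28, 26 and 23 in PCD-blocked libraries (0.91 ± 0.29 SE, edgeR's adjusted p = 0.0475).

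These copies are low enough that a few counts matter. The COX7AL and UQCR-11L calls were lost without pair 1 and with DESeq2, that of UQCR-11L also without pair 2, and that of COX6CL when any 1 pair was left out, without the block, without the filter and with DESeq2. Their parent genes COX7A (-0.08) and UQCR-11 (0.05) did not pass.

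**Figure D5:**
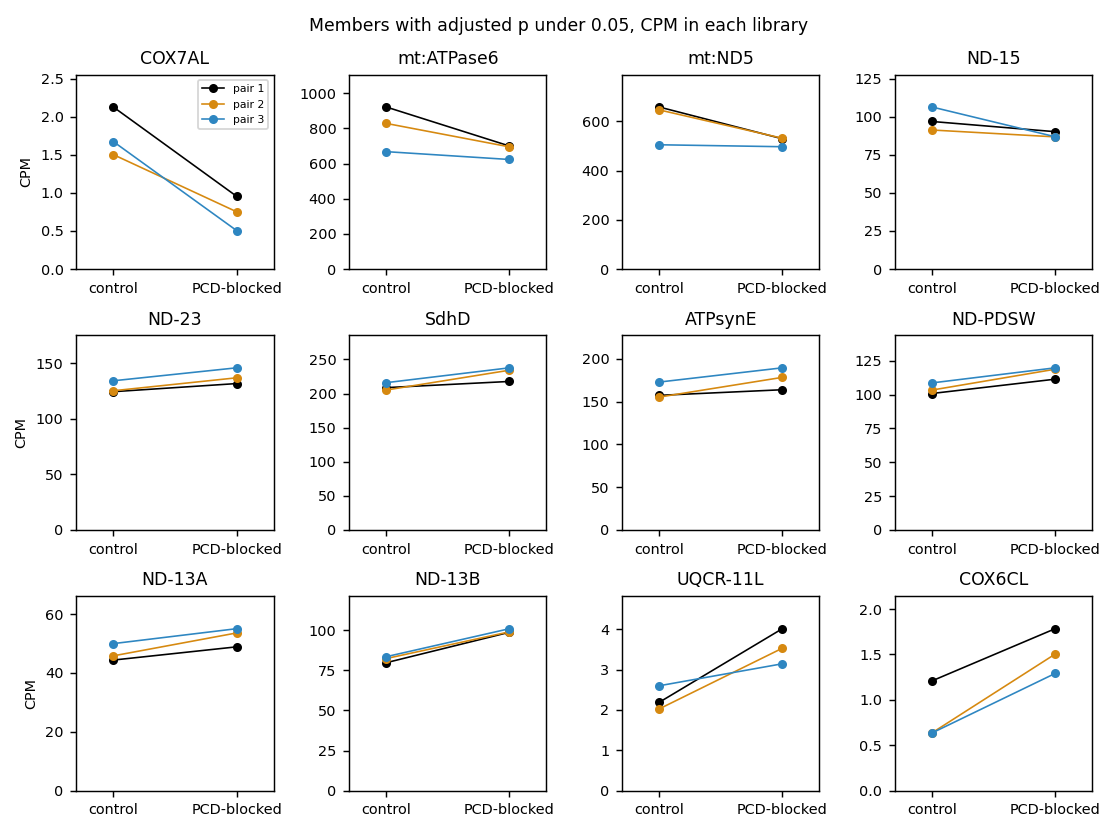
CPM of the 12 genes with an adjusted p under 0.05 in each library, with lines joining the libraries of a pair and axes that start at 0. ND-13B rises from 79.7 to 83.5 CPM in controls to 98.7 to 101 CPM in PCD-blocked libraries, while mt:ATPase6 and mt:ND5 in pair 3 differ little between the groups.

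Several nuclear genes varied widely between libraries of a group. ATPsynF, a membrane subunit of the ATP synthase, had 159, 193 and 192 CPM in controls 1 to 3 and 128, 178 and 189 CPM in PCD-blocked libraries 1 to 3. ND-18, an accessory subunit gene of complex I, had 72.8, 86.1 and 95.3 CPM in controls and 63.7, 95.5 and 91.5 CPM in PCD-blocked libraries. UQCR-C2, a core protein of complex III, had 336, 386 and 420 CPM in the control libraries, against 301, 379 and 408 CPM with cell death blocked. In each of these genes PCD-blocked 1 was the lowest library and control 1 the next. Within pairs, ATPsynF (log2 ratios -0.31, -0.11 and -0.03) and UQCR-C2 (-0.16, -0.03 and -0.04) were lower with cell death blocked in all 3, and ND-18 in 2 of 3.

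ATPsynB, of the stator stalk, and ND-B17, of complex I, were also lowest in PCD-blocked 1, with 223 and 62.2 CPM, and next lowest were control 1 for ATPsynB (254 CPM) and PCD-blocked 2 for ND-B17 (76.3 CPM). Among tested nuclear subunit genes, without the like-named copies, these 5 lay furthest from their group mean in PCD-blocked 1. They did so by 0.26 to 0.37 on the log2 scale and were named after their values were seen. None passed the test between groups (adjusted p from 0.0677 to 0.782 with edgeR), though ATPsynF and ND-B17 passed without pair 3 and without the expression filter. PCD-blocked 1 also stood apart from the other PCD-blocked libraries on the second principal component of all genes, at 24.0 against -8.71 and -17.8.

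Subunits that the symbol rule leaves out were tested in the same fit. Of 7 such genes, 0 were called higher or lower by edgeR or DESeq2, and 1 was higher and 1 lower at an unadjusted p under 0.05 with edgeR. The alpha subunit gene blw of the ATP synthase had 1480 CPM in the control libraries, against 1488 CPM with cell death blocked (a log2 fold change of 0.01 with SE 0.03). Cyt-c1 and RFeSP, the electron-carrying subunits of complex III, had log2 fold changes of -0.005 and -0.01. Among 8 tested carriers, 2 were higher and 0 lower, or 25.0% called against 27.7% of all genes. Bmcp, a brain uncoupling-protein relative, rose from 78.2 ± 4.95 to 94.3 ± 6.98 CPM (0.27 ± 0.03 SE, edgeR's adjusted p = 0.000513), and Mpcp2, a phosphate carrier gene, from 1241 ± 75.8 to 1338 ± 77.8 CPM. The Mpcp2 call was lost when any 1 pair was left out, without the block and without the filter. The value for cytochrome c (Cyt-c-p) was 0.11 ± 0.04 (SE, edgeR's adjusted p = 0.0779).

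Genes that build and maintain the system were counted against the 27.7% called over all genes. Of 7 tested assembly factor genes outside the symbol rule, Surf1, which serves complex IV, rose by 0.26 and 0 were lower (14.3% called). Of 16 tested genes of mitochondrial DNA maintenance and expression, 1 was higher, the transcription factor gene ewg (0.16), and 0 were lower (6.25% called). Of 71 tested mitochondrial ribosomal protein genes 1 was higher (mRpL47, 0.30) and 2 were lower (mRpL37, -0.47, and mRpL2, -0.24), or 4.23% called. Of 10 tested genes of mitochondrial protein import 0 were called by edgeR or DESeq2, and 1 was higher and 1 lower at an unadjusted p under 0.05 with edgeR. The calls of Surf1, mRpL47 and mRpL2 were lost without pair 2 and with DESeq2, that of Surf1 also without pair 1 or 3, that of mRpL2 also without pair 3, and that of ewg with DESeq2.

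Enzymes that feed electrons to the respiratory chain were tested next. Of 13 tested genes of pyruvate dehydrogenase and the citric acid cycle, 2 were lower and 0 higher, or 15.4% called against 27.7% of all genes. The aconitase gene mAcon1 had 1338, 1392 and 1406 CPM in the control libraries, against 1077, 1105 and 1130 CPM with cell death blocked (a log2 fold change of -0.32 with SE 0.03, edgeR's adjusted p = 0.000124). ScsbetaG, a succinyl-CoA ligase subunit gene, had 62.3, 63.3 and 62.9 CPM in controls and 45.2, 45.8 and 44.8 CPM in PCD-blocked libraries (-0.47 ± 0.04 SE). Both had groups far apart, and the median of the list was 0.01.

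Of 5 tested antioxidant enzyme genes 4 were lower and 0 higher, where 13.3% of all genes were lower and 14.3% higher. The catalase gene Cat fell from 1142 ± 8.99 to 847 ± 49.4 CPM (a log2 fold change of -0.43 with SE 0.04, edgeR's adjusted p = 6.83e-05). The cytosolic superoxide dismutase gene Sod1 fell from 544 ± 21.3 to 436 ± 15.0 CPM (-0.32 ± 0.03 SE), and the thioredoxin reductase gene Trxr1 by 0.19. Sod2, the mitochondrial superoxide dismutase gene, fell by 0.17, a call lost with DESeq2 and without the block (edgeR's adjusted p = 0.0901). Prx3, a mitochondrial peroxiredoxin gene, was at -0.004 and did not pass. Of 6 tested stress and quality control genes, crc, which encodes the fly ATF4 factor, fell by 0.23 on the log2 scale.

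Markers of other cells were measured beside these results. The 5 glial markers summed to 3772 to 3829 CPM in the control libraries, against 3208 to 3344 CPM with cell death blocked, mostly Gs2. Of them Gs2 was called lower (log2 fold change -0.24) and repo higher (0.34), and alrm was at 0.173 CPM or less in either group mean. The 4 olfactory neuron markers summed to 5097 to 5236 and 5748 to 5847 CPM, with Ir25a and Snmp1 called higher and Ir8a lower (log2 fold changes 0.45, 0.38 and -0.11). The 4 general neuron markers summed to 1949 to 2011 and 2004 to 2087 CPM. The 5 support cell markers summed to 18751 to 19866 CPM over all libraries, with overlapping sums, but Obp28a and nompA were called higher (log2 fold changes 0.34 and 0.78) and lush lower (-0.39). The 8 muscle markers summed to 35.0 to 87.4 CPM in controls and 45.6 to 110 CPM in PCD-blocked libraries, with Act88F at 0.0385 and 0.0562 CPM. The 6 fat body markers summed to 44.9 to 177 and 68.6 to 80.3 CPM, and the 5 hemocyte markers to 25.1 to 33.1 and 33.4 to 55.4 CPM. Of 4 tested fat body markers 1 was called higher and 2 lower, with log2 fold changes from -2.04 to 1.44. Calls were 1 higher of 4 tested hemocyte markers, 1 higher of 2 auditory markers and 0 of 4 muscle markers. Of all genes 14.3% were higher and 13.3% lower. The 3 auditory neuron markers summed to 4.22 to 6.71 and 6.37 to 13.4 CPM, the 5 photoreceptor markers to 2.30 to 2.72 and 2.70 to 3.70 CPM, and the 2 tracheal markers to at most 0.764 CPM. Their part in the differences described here was not tested.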

How the data were processed

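The authors deposited raw counts per gene for each library. The tools HTSeq 0.9.1, STAR 2.5.3a and cutadapt 1.8 and the build BDGP6 appear in the submitters' processing notes, without roles. The sources used here give neither annotation release nor strand setting. Per the labels' protocols, poly(A) RNA was selected and a directional kit was used. The 5 rows that name no gene (11.9% to 13.5% of counts) were left out. Symbols, positions and exon lengths came from the Ensembl annotation of BDGP6, and 17560 of 17698 identifiers had a symbol.

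Genes were tested with edgeR 4.0.16 (R 4.3.3; TMM, default filter, quasi-likelihood test, Benjamini-Hochberg over 9181 genes). Standard errors come from the fold change and test statistic. The sample pair was a block since the design is described as paired. Deviations of same-numbered libraries correlated at 0.0688, 0.240 and -0.192 in pairs 1 to 3. The test sets each difference against the spread between pooled collections that remains after the pair block, and not against the spread between single flies. The test was also run on simulated counts that held no pair effect, and the outcome is not used here as support for any call.

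Members, lists and tests were chosen with earlier results of these data known. The text names all mitochondrial members and SdhA to SdhD. It adds up to 5 called nuclear genes per direction and complex, the 3 most abundant members per complex, called members under 1 CPM in controls, and up to 4 called genes per other list. Other named genes were chosen after their values were seen. Listed names that were not matched include Dlst, Fum1 and Tim50. Alternatives were DESeq2 1.42.0, other scalings and filters, no block, and each pair left out.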

Additional observations from a re-analysis of the deposited data

Results flagged for a closer look

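Reads outside the gene counts differed between the groups. Reads that aligned to several places were 7.21% to 7.67% of all counts in control libraries and 8.04% to 8.52% (mean 8.28%) in PCD-blocked libraries. Reads assigned to several genes were 1.91% to 1.93% in controls and 1.99% (mean 1.99%) in PCD-blocked libraries. Both were higher in all PCD-blocked libraries, and their part in the gene-level results was not tested.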

How the results depend on the processing

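Without the sample pair as a block, 3 members were higher and 1 lower, 0 of them mitochondrial and 4 nuclear (2 in complex I, 0 in II, 1 in III, 1 in IV, 0 in V). With DESeq2, 1249 genes were called (615 higher, 634 lower), of which 1 member was higher and 0 lower, 0 mitochondrial and 1 nuclear (1 in complex I and 0 in each of II, III, IV and V). With no expression filter 8 members were lower, 4 mitochondrial members were called, and complexes IV and V had 1 and 2 nuclear calls. With plain library totals complex V had 3. Of all genes, 23.2% were called without the block, 19.4% with no filter and 29.2% with plain totals. With DESeq2 it was 12.0% of the genes with an adjusted p. Leaving out 1 pair at a time gave 1481 to 2071 called genes (753 to 1065 higher, 728 to 1006 lower). These were 16.1% to 22.4% of the genes tested. Members then ranged from 1 to 5 higher and 1 to 7 lower, mitochondrial calls from 0 to 4 and nuclear calls from 2 to 6. By complex the nuclear calls ranged from 1 to 3 in I and from 0 to 1 in each of II, III, IV and V. The mean within-pair log2 ratio of summed nuclear complex I genes was -0.0024 with TMM, 0.0335 with plain CPM and 0.0314 with totals without mitochondrial genes. The cause of these changes was not tested. Counts at or under 3 limit what can be said of the silent copies and of mt:ATPase8, mt:ND4L and mt:ND6.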
